A study of Mus musculus with 8 samples.

Results

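The genes described here encode membrane proteins, hydrolases and proton pump subunits of the lysosome, together with 3 transcription factors of the MiT family. They were chosen by name: a probe belonged to the set when its gene name in the scanner files was one of 33 fixed names, with the cathepsins left out. All 33 genes were found, on 45 of the 55681 probes of the array, which carries 34791 gene names. By role they comprised 8 membrane proteins, 6 glycosidases, 6 proteins of lipid breakdown, 5 proteases, phosphatases and the secreted protein progranulin, 5 V-ATPase subunits and 3 transcription factors.

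Expression was measured on 1-colour arrays in 4 groups of C57BL/6 mouse samples, with 2 samples in each group. Primary c-kit+/CD45+ cells (CD45+ cells) and primary c-kit+/CD45- cells (CD45- cells) were obtained by sorting left atrial appendage explant cultures from mice of 8 to 12 weeks. The CD45+ cells came from weak digestion, with 0.05% trypsin, and the CD45- cells from strong digestion, with 0.25% trypsin, both with 0.1% collagenase D, so the sort gate and the digestion cannot be told apart. Passage-8 cells were derivatives of the c-kit+/CD45+ cells after 8 passages in culture. Biopsies of the left ventricular wall of mice aged 12 weeks served as tissue controls, and their RNA was extracted with another reagent than that of the cells. The labels do not say whether the 2 samples of a group came from separate cultures or animals, so each p-value reflects the spread between the samples at hand alone, and that spread may be technical.

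Lysosomes are acidic organelles in which hydrolases break down proteins, glycans and lipids delivered by endocytosis, phagocytosis and autophagy. The V-ATPase pumps protons into the lumen, and heavily glycosylated membrane proteins line the inner face of the limiting membrane. Macrophages and osteoclasts are rich in lysosomes, and the MiT factors TFEB, TFE3, MITF and TFEC bind E-box motifs, which TFEB is known to use in the promoters of many lysosomal genes.

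RefSeq promoter windows, from 250 bases before to 50 after the transcription start in build GRCm38.p6, were held for 28 of the 33 genes (36 windows). The E-box CACGTG was in 7 of these 36 windows (19.4%), against 7.15% of all 32851 windows. These 7 windows belonged to Mcoln1, Lamp1, Atp6v0d1, Glb1, Lgmn, Atp6v1a and Gla. The longer TCACGTGA, the core of the CLEAR element bound by TFEB, was in 4 windows (11.1%, against 0.974% of all windows), those of Mcoln1, Atp6v0d1, Atp6v1a and Gla. The full CLEAR palindrome, which adds a base on either side, was in none of the 36 windows and in 0.326% of all windows. Each of the 3 motifs is its own reverse complement, so a match counts for both strands, and each longer motif contains the shorter. The stretches below run 5′ to 3′ from 150 bases before the start to 20 bases after it, with CACGTG in capitals, and show 4 promoters with the E-box beside that of Laptm5, which has none in its window.
Lamp1 (chr8:13159011-13159180, plus strand): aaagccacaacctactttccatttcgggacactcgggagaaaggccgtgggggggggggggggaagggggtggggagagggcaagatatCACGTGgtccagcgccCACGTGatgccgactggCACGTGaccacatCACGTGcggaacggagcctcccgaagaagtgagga
Mcoln1 (chr8:3500369-3500538, plus strand): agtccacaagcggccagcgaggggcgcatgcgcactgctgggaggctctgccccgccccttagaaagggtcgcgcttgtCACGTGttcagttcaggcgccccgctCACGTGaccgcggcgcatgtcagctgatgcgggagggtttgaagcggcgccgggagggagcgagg
Atp6v1a (chr16:44139240-44139409, minus strand): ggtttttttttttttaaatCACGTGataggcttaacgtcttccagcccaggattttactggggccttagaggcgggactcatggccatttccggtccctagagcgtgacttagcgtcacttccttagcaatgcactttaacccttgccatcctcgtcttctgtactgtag
Atp6v0d1 (chr8:105566045-105566214, minus strand): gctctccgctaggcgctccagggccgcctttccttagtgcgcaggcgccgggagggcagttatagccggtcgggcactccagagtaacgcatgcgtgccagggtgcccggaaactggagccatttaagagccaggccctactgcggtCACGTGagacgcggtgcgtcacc
Laptm5 (chr4:130913166-130913335, plus strand): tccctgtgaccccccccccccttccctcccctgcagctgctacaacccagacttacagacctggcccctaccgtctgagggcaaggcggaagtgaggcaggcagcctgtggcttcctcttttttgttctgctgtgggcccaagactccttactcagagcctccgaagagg
Within the window Lamp1 held 4 E-boxes, starting at bases 190, 206, 223 and 236 counted from 1 at its 5′ end, and Mcoln1 held 2, at bases 180 and 206. A match describes the letters and not a bound site.

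Every value below is the log2 of the processed signal minus the 75th percentile of its array. Thus 0 is the 75th percentile of the non-control spots of an array, and a difference of 1 is a factor of 2. The level of a gene is that of its brightest probe. A gene entered the test of a comparison when at least 1 of its groups had both arrays well above background, and it passed at an adjusted p under 0.05 (limma, Benjamini-Hochberg over all genes tested) with an absolute log2 difference of at least 1. All 33 genes were well above background on both CD45+ arrays, and 30 of them on all 8 arrays. The exceptions were Laptm5 and Atp6v0d2 in CD45- cells, Laptm5, Tfec and Atp6v0d2 in passage-8 cells, and Tfec and Atp6v0d2 in the ventricle. In comparisons with these groups such a gene was tested only through the other group, so its direction there follows in part from the filter.

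Between 51.5% and 69.9% of the spots of an array were well above background, and no spot was saturated. The median absolute difference between the 2 arrays of a group was 0.451 in CD45- cells, 0.302 in the ventricle, 0.117 in CD45+ cells and 0.0936 in passage-8 cells. Ptprc, which encodes CD45, was at 2.04 and 1.93 in CD45+ cells, -5.52 and -3.34 in CD45- cells, -5.57 and -5.18 in passage-8 cells, and -2.33 and -2.89 in the ventricle. Kit was at -3.57 and -3.33 in CD45+ cells and at -6.34 and -1.55 in CD45- cells, where 1 of the 2 arrays was well above background. It was at -5.68 and -5.55 in passage-8 cells and at -1.48 and -2.48 in the ventricle, so both tissue arrays lay above those of the CD45+ cells, which were sorted as c-kit+. Over 15 macrophage markers the summed signal, in multiples of the 75th percentile, was 997.4 to 1023 in CD45+ cells, 60.42 to 105.2 in CD45- cells, 33.94 to 34.32 in passage-8 cells and 99.39 to 107.3 in the ventricle. All 15 were well above background on both CD45+ arrays. Spi1 was above it on no array of the other 3 groups, and Adgre1, C1qa, C1qc, Fcgr3 and Cx3cr1 on no passage-8 array. Itgam went the other way, with 4.31 and 4.29 in CD45+ cells against 4.79 to 6.06 on the other 6 arrays. It was the brightest of the 15 markers on each of these 6 arrays and made up most of their sums. The sums thus understate how far the other markers lay below the CD45+ cells, and how far the CD45- arrays differed. Over 8 fibroblast markers the sum was 612 to 639.3 in CD45+ cells and 280.2 to 429.4 in the ventricle. It was higher in the other cell groups, 1469 to 1562 in CD45- cells and 1057 to 1064 in passage-8 cells. All 8 were well above background on both arrays of each group. In passage-8 cells Thy1 and Postn went the other way, with means of -0.78 and 1.01 against 4.19 and 2.98 in CD45+ cells. The part of the macrophage and fibroblast markers in the differences below was not tested. In such bulk samples fewer cells of a type and less RNA per cell cannot be told apart.

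Most lysosomal genes were highest in the CD45+ cells. The group mean was highest there for 28 of the 33 genes, against 18.2% of the 24490 genes well above background in any group. For 26 genes both CD45+ arrays lay above all 6 other arrays, against 12.4% of those genes. The other highest means were those of Gla in CD45- cells, Lamp2 in passage-8 cells, and Smpd1, Tfeb and Mitf in the ventricle, where CD45- cells, passage-8 cells and the ventricle had the highest mean for 25.4%, 25.2% and 31.2% of all genes. The lowest mean was in the ventricle for 18 genes, in passage-8 cells for 9, in CD45- cells for 6 and in CD45+ cells for none, against 33.9%, 22.3%, 16.9% and 26.9% of all genes.

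**Figure D1:**
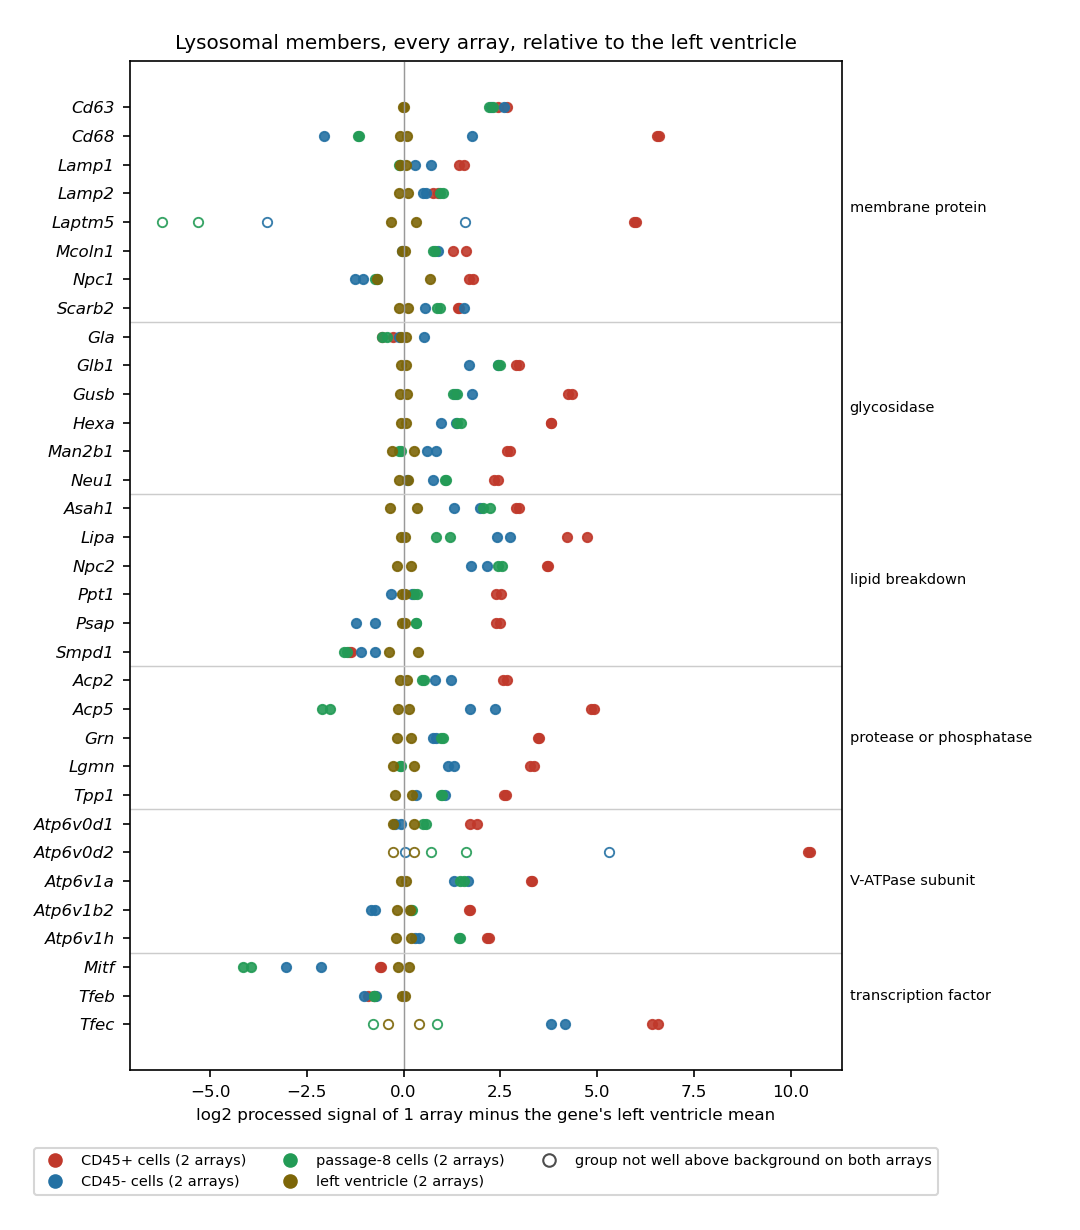
Each gene's log2 processed signal on each of the 8 arrays, minus that gene's left ventricle mean, grouped by role. Points are single arrays and open points mark groups not well above background on both arrays. Both CD45+ points lie to the right of the others for 26 of the 33 genes, and Gla, Tfeb and Lamp2 spread little.

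CD45- cells had lower signals than CD45+ cells for most of the genes. Of 33 genes tested, 24 were lower and 0 were higher, where 10.5% of the 21525 genes tested were lower and 11.2% were higher. None was higher at an unadjusted p under 0.05 either, and 27 were lower at that level. Among the 31 genes well above background on all arrays of both groups, 22 were lower and 0 higher. Of all 18720 such genes 1508 were lower and 2204 higher. The median difference over the 33 genes was -1.94, against 0.17 over all genes tested. Quantile normalization gave medians of -1.99 and 0.069, and normexp background correction -2.07 and 0.326. With each of the 8 arrays left out in turn the median stayed between -2.02 and -1.94. Without either CD45+ array far fewer genes passed, both among the 33 genes and over all genes tested. The calls for Hexa, Gusb, Psap, Ppt1, Acp5, Grn and Atp6v1b2 held with each of the 8 arrays left out in turn, and the other 17 did not.

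Passage-8 cells were compared with the same CD45+ arrays, those of the cells they derive from. Here 23 of 33 genes were lower and 0 higher, where 10.9% of 23443 genes tested were lower and 12.5% were higher. Among the 30 genes well above background on all arrays of both groups, 20 were lower and 0 higher. Of all 20249 such genes 1848 were lower and 2225 higher. Of the 33 genes none was higher at an unadjusted p under 0.05. Their median difference was -1.78, against 0.16 over all genes tested. With each of the 8 arrays left out in turn 15 of the calls held, and those for Lamp1, Npc1, Npc2, Tpp1, Neu1, Atp6v0d1, Atp6v0d2 and Atp6v1b2 did not. Lamp1 passed in this comparison and not in CD45- cells, while Asah1 and Atp6v1h passed in CD45- cells and not here. Tested directly, passage-8 minus CD45- cells gave -0.61 for Lamp1 (adjusted p = 0.129) and 0.50 for Asah1 (adjusted p = 0.367), which did not pass, and 1.10 for Atp6v1h, which did.

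**Figure D2:**
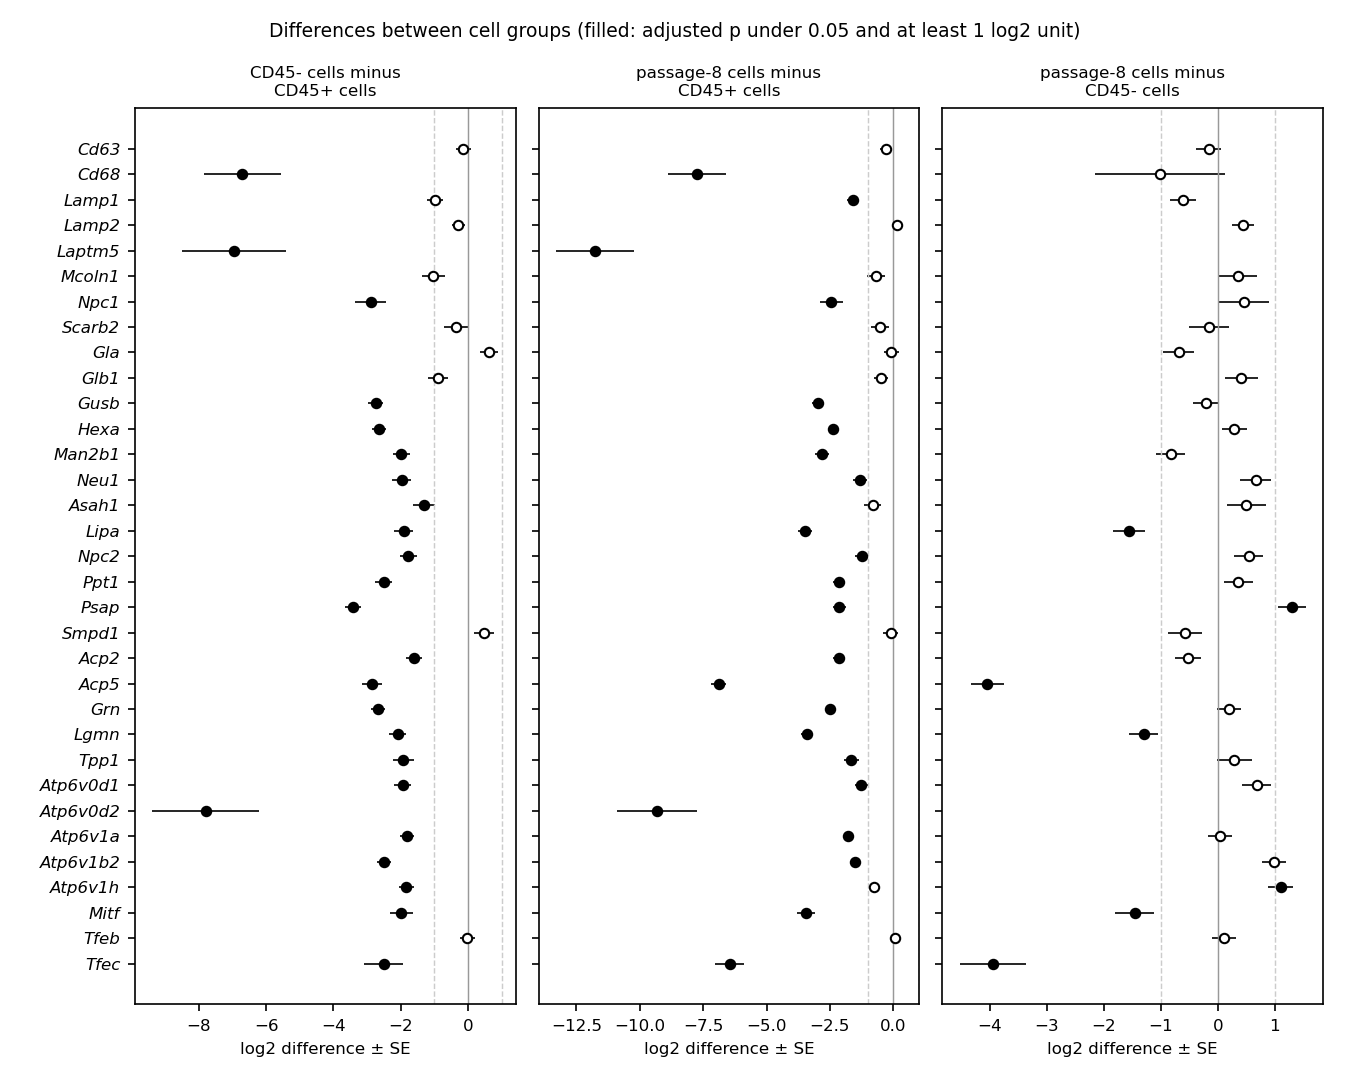
Log2 difference ± SE of each gene between the cell groups, in 3 panels with their own x axes, with SE from the spread pooled over all 8 arrays. Filled points passed the test, dashed lines mark 1 log2 unit, and genes with no point were not tested. The first and second panels share the CD45+ arrays, and their filled points all lie left of 0.

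Among the membrane proteins the signal of Cd68 and Laptm5 fell far, that of Npc1 fell by a few fold, and that of Cd63 and Lamp2 passed no test between cell groups. Of the 8, 3 were lower in CD45- cells (Cd68, Npc1 and Laptm5) and 4 in passage-8 cells (these and Lamp1). Cd68, a scavenger receptor of macrophage lysosomes, was at 7.76 and 7.82 in CD45+ cells, -0.84 and 2.99 in CD45- cells, 0.07 and 0.04 in passage-8 cells, and 1.13 and 1.30 in the ventricle. The CD45+ arrays stood apart from all others, and the 2 CD45- arrays lay on either side of the ventricle. Cd68 was 105-fold lower in CD45- than in CD45+ cells (log2 difference -6.71, SE 1.14, adjusted p = 0.0114). This difference was -4.79 without CD45- replicate 1 and -8.63 without CD45- replicate 2, and the call was lost without either CD45+ array. In passage-8 cells Cd68 was 212-fold lower than in CD45+ cells (-7.73, SE 1.14, adjusted p = 0.00629). The SE of 1.14 is pooled over the groups and drawn towards the spread of all genes. The SD was 2.71 in CD45- cells, 0.04 in CD45+ cells, 0.02 in passage-8 cells and 0.12 in the ventricle. This SE thus understates the spread of CD45- cells and overstates that of the others.

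Laptm5, a lysosomal protein of haematopoietic cells, was at 4.90 and 4.86 in CD45+ cells and at -0.77 and -1.43 in the ventricle. The CD45- arrays read -4.64 and 0.49, of which the second was well above background, and the passage-8 arrays read -7.34 and -6.40, neither well above it. Laptm5 was at least 1390-fold lower in passage-8 than in CD45+ cells (adjusted p = 0.00447). Such a bound divides the mean of the bright group by the lowest signal counted as well above background on the dim arrays, or the dim probe's own signal where higher. For CD45- minus CD45+ cells the fitted difference was -6.95 (SE 1.55, adjusted p = 0.0253), averaged over both CD45- arrays. It was -4.39 without CD45- replicate 1 and -9.52 without CD45- replicate 2, and the call was lost without either CD45+ array, without either ventricle array and with only the 2 groups compared in the fit.

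Npc1, which exports cholesterol from the lysosome, was at 2.19 and 2.31 in CD45+ cells, -0.75 and -0.55 in CD45- cells, -0.24 and -0.17 in passage-8 cells, and -0.18 and 1.20 in the ventricle. Its decline from CD45+ cells was 7.46-fold in CD45- cells (adjusted p = 0.00901) and 5.47-fold in passage-8 cells (adjusted p = 0.0126). Lamp1, a structural glycoprotein of the limiting membrane, was at 8.46 and 8.33 in CD45+ cells, 7.20 and 7.62 in CD45- cells, 6.78 and 6.82 in passage-8 cells, and 6.98 and 6.83 in the ventricle. The CD45+ arrays were the highest, and the passage-8 and ventricle arrays lay side by side. Lamp1 was 3.02-fold lower in passage-8 cells (adjusted p = 0.00564). In CD45- cells its difference of -0.99 (adjusted p = 0.0276) missed the size threshold and crossed it after quantile normalization, after normexp correction and in the authors' deposited values.

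Cd63, a tetraspanin of late endosomes, lay between 7.88 and 8.34 on the 6 cell arrays and at 5.65 and 5.68 in the ventricle. No cell group passed against another, with 95% intervals of -0.68 to 0.40 for CD45- minus CD45+ cells and -0.84 to 0.24 for passage-8 minus CD45+ cells. All cell groups were higher than the ventricle, 5.38-fold in CD45- cells, 5.91-fold in CD45+ cells and 4.81-fold in passage-8 cells (adjusted p from 0.000531 to 0.000752). Scarb2, the receptor that carries beta-glucocerebrosidase, and Mcoln1, the lysosomal calcium channel TRPML1, were higher in CD45+ cells than in the ventricle, by 2.69-fold and 2.74-fold (adjusted p = 0.0213 and 0.0180), and passed no test between cell groups. Mcoln1 was 1.03 lower in CD45- than in CD45+ cells (adjusted p = 0.0775), a difference that passed after normexp correction and in the authors' deposited values.

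Lamp2, the partner of Lamp1 and a receptor of chaperone-mediated autophagy in its A isoform, had 2 probes that disagreed. The brighter probe (mm9 chrX:35772774-35772833) read 5.18 and 5.30 in CD45+ cells, 4.98 and 4.92 in CD45- cells, 5.42 and 5.36 in passage-8 cells, and 4.29 and 4.53 in the ventricle. On this probe the differences from CD45+ cells were -0.29 in CD45- cells and 0.15 in passage-8 cells. The other probe (mm9 chrX:35777505-35777564), which the files assign to a different RefSeq transcript of the gene, read 4.44 and 4.40 in CD45+ cells, 2.62 and 2.90 in CD45- cells, 2.99 in both passage-8 samples, and 1.91 and 2.32 in the ventricle. Here the differences from CD45+ cells were -1.66 and -1.43, and the CD45+ arrays lay above the rest, as they did not on the first probe.

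The glycosidases, which remove sugars from glycoproteins and glycolipids, split into 4 genes that fell in both CD45- and passage-8 cells and 2 that passed in neither. The 4 were Hexa, Gusb, Man2b1 and Neu1, and their declines ranged from 3.90-fold to 6.72-fold in CD45- cells and from 2.47-fold to 7.80-fold in passage-8 cells. Hexa, the alpha subunit of beta-hexosaminidase, was at 6.95 on both CD45+ arrays, 4.10 and 4.49 in CD45- cells, 4.53 and 4.63 in passage-8 cells, and 3.08 and 3.20 in the ventricle. The CD45+ arrays, the other cell arrays and the ventricle formed levels that did not overlap. Hexa was 6.29-fold lower in CD45- cells (log2 difference -2.65, SE 0.22, adjusted p = 0.00236), and in passage-8 cells it was 5.16-fold lower (-2.37, SE 0.22, adjusted p = 0.00167).

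Gusb, beta-glucuronidase, was at 5.76 and 5.88 in CD45+ cells, 2.85 and 3.29 in CD45- cells, 2.90 and 2.81 in passage-8 cells, and 1.60 and 1.44 in the ventricle. The CD45+ arrays were again the highest and the ventricle the lowest, with a 6.72-fold decline in CD45- cells (adjusted p = 0.00236) and a 7.80-fold decline in passage-8 cells (adjusted p = 0.00110). Man2b1, the lysosomal alpha-mannosidase, was 3.95-fold lower in CD45- cells (adjusted p = 0.00563), and in passage-8 cells it was 7.01-fold lower (adjusted p = 0.00159), reading 2.89 and 2.95, within the ventricle's 2.73 and 3.30. Neu1, the lysosomal sialidase, was 3.90-fold lower in CD45- cells (adjusted p = 0.00694), and in passage-8 cells 2.47-fold lower (adjusted p = 0.0205).

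Glb1, the lysosomal beta-galactosidase whose activity is a widely used stain for senescent cells, was at 3.65 and 3.72 in CD45+ cells, 2.42 and 3.18 in CD45- cells, 3.19 and 3.22 in passage-8 cells, and 0.80 and 0.68 in the ventricle. It passed no test between cell groups, with a difference of -0.89 in CD45- cells (adjusted p = 0.0738) that passed after normexp correction. Against the ventricle it was 4.17-fold higher in CD45- cells, 7.71-fold in CD45+ cells and 5.53-fold in passage-8 cells (adjusted p from 0.000827 to 0.00267). Gla, alpha-galactosidase A, lay between 7.86 and 8.95 on all 8 arrays and passed in no comparison. For passage-8 minus CD45+ cells its difference was -0.07, with a 95% interval of -0.76 to 0.62.

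Among the genes of lipid breakdown 5 of 6 were lower in CD45- cells and 4 in passage-8 cells, and Smpd1 was in neither set. Psap, the precursor of the saposins that present sphingolipids to their hydrolases, was at 8.04 and 7.94 in CD45+ cells, 4.32 and 4.81 in CD45- cells, 5.87 in both passage-8 samples, and 5.52 and 5.59 in the ventricle. The 4 groups did not overlap, and CD45- cells were the lowest. Psap was 10.7-fold lower in CD45- than in CD45+ cells (-3.43, SE 0.24, adjusted p = 0.00213), and in passage-8 cells it was 4.36-fold lower (-2.12, SE 0.24, adjusted p = 0.00269). Lipa, the acid lipase of cholesteryl esters and triglycerides, was at 4.55 and 4.01 in CD45+ cells, 2.21 and 2.54 in CD45- cells, 0.99 and 0.64 in passage-8 cells, and -0.26 and -0.15 in the ventricle. Its levels stepped down in that order without overlap, 3.75-fold from CD45+ to CD45- cells (adjusted p = 0.00778) and 11.1-fold from CD45+ to passage-8 cells (adjusted p = 0.00117).

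Npc2, which hands cholesterol to Npc1, was at 6.49 and 6.45 in CD45+ cells, 4.91 and 4.48 in CD45- cells, 5.18 and 5.29 in passage-8 cells, and 2.58 and 2.93 in the ventricle. It fell 3.43-fold in CD45- cells (adjusted p = 0.00662) and 2.36-fold in passage-8 cells (adjusted p = 0.0165). Ppt1, a thioesterase that removes palmitate from proteins, fell 5.69-fold and 4.42-fold in the same comparisons (adjusted p = 0.00320 and 0.00298). Asah1, acid ceramidase, was 2.48-fold lower in CD45- cells (adjusted p = 0.0392), a call lost in 4 of the other settings, among them the fit with only the 2 groups compared, and also without CD45- replicate 2, either CD45+ array or either passage-8 array. Smpd1, acid sphingomyelinase, ran the other way against tissue: it was at 5.92 and 5.17 in the ventricle and at most at 4.81 on the cell arrays. It was 2.63-fold lower than the ventricle in CD45+ cells (adjusted p = 0.0136), and in passage-8 cells 2.83-fold lower (adjusted p = 0.0101).

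All 5 genes of the protease and phosphatase group (Tpp1, Lgmn, Acp2, Acp5 and Grn) were lower in both CD45- and passage-8 cells than in CD45+ cells. Acp5, the tartrate-resistant acid phosphatase of osteoclasts and macrophages, was at 4.85 and 4.78 in CD45+ cells, 1.64 and 2.29 in CD45- cells, -1.97 and -2.18 in passage-8 cells, and -0.22 and 0.08 in the ventricle. No groups overlapped, and passage-8 cells were below the tissue. Acp5 was 7.24-fold lower in CD45- cells (-2.86, SE 0.29, adjusted p = 0.00331), and in passage-8 cells it was 119-fold lower (-6.89, SE 0.29, adjusted p = 0.000420). Beside it, the summed signal of 9 osteoclast markers was 111 to 114 in CD45+ cells, 20.5 to 46.7 in CD45- cells, 7.11 to 7.46 in passage-8 cells and 6.38 to 7.07 in the ventricle. Most of the CD45+ sum was Ctsk, a cathepsin, at 6.46 and 6.47. Dcstamp, Calcr and Mmp9 were well above background on no array outside the CD45+ cells, and Calcr on only 1 CD45+ array. Other markers did not follow: Oscar was at -2.17 and -2.57 in CD45+ cells and -2.27 to -1.62 elsewhere. Ocstamp read -2.27 and -2.51 in CD45+ cells and -2.21 and -2.15 in CD45- cells, and Itgb3 3.73 and 3.80 against 2.83 and 4.41. The part of this list in the result was not tested.

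Lgmn, the asparaginyl endopeptidase legumain, was at 8.00 and 7.89 in CD45+ cells, 5.93 and 5.78 in CD45- cells, 4.53 and 4.57 in passage-8 cells, and 4.91 and 4.35 in the ventricle. It fell 4.27-fold in CD45- cells (adjusted p = 0.00467) and 10.5-fold in passage-8 cells (adjusted p = 0.000941), to the level of the ventricle. Grn, which encodes progranulin, was at 7.24 and 7.26 in CD45+ cells, 4.52 and 4.61 in CD45- cells, 4.74 and 4.78 in passage-8 cells, and 3.59 and 3.95 in the ventricle. The CD45+ arrays were far above the rest, with declines of 6.42-fold in CD45- cells (adjusted p = 0.00233) and 5.61-fold in passage-8 cells (adjusted p = 0.00134). Tpp1, a tripeptidyl peptidase, and Acp2, the lysosomal acid phosphatase, fell 3.82-fold and 3.05-fold in CD45- cells (adjusted p = 0.0100 and 0.00686), and 3.14-fold and 4.37-fold in passage-8 cells (adjusted p = 0.0138 and 0.00240).

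The V-ATPase subunits were all lower in CD45- than in CD45+ cells, 5 of 5, and 4 of 5 were lower in passage-8 cells. The largest decline was that of Atp6v0d2, the d2 isoform of the membrane sector that is known from osteoclasts. It was at 3.70 and 3.66 in CD45+ cells and at -6.76 and -1.48 in CD45- cells, where replicate 2 was well above background. Neither the passage-8 arrays (-6.09 and -5.19) nor the ventricle arrays (-6.54 and -7.07) were. The fitted difference in CD45- cells was -7.80 (SE 1.58, adjusted p = 0.0194), which averages over the array that was not above background. It was -5.16 without CD45- replicate 1 and -10.44 without CD45- replicate 2, and the call was lost without either CD45+ array and with only the 2 groups compared in the fit. Atp6v0d2 was at least 556-fold lower in passage-8 cells (adjusted p = 0.00984), a call also lost without either CD45+ array, and at least 399-fold lower in the ventricle (adjusted p = 0.00359) than in CD45+ cells.

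Its paralog Atp6v0d1, the d1 isoform found in most tissues, was well above background on all 8 arrays. It was at 4.25 and 4.43 in CD45+ cells, 2.47 and 2.33 in CD45- cells, 3.12 and 3.05 in passage-8 cells, and 2.28 and 2.80 in the ventricle. The CD45+ arrays were the highest, with declines of 3.84-fold in CD45- cells (adjusted p = 0.00537) and 2.39-fold in passage-8 cells (adjusted p = 0.0157). In the catalytic V1 sector, Atp6v1a (subunit A) was at 5.26 and 5.23 in CD45+ cells, 3.61 and 3.26 in CD45- cells, 3.42 and 3.51 in passage-8 cells, and 1.89 and 2.02 in the ventricle. It fell 3.51-fold in CD45- cells (adjusted p = 0.00458) and 3.43-fold in passage-8 cells (adjusted p = 0.00345). Atp6v1b2 (subunit B2) fell 5.63-fold and 2.83-fold in the same comparisons (adjusted p = 0.00236 and 0.00549).

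Atp6v1h, the subunit that regulates the joining of the 2 sectors, was at 2.45 and 2.52 in CD45+ cells, 0.59 and 0.71 in CD45- cells, 1.76 and 1.73 in passage-8 cells, and 0.10 and 0.50 in the ventricle. The groups did not overlap, with passage-8 cells between the sorted cell groups. It was 3.58-fold lower in CD45- than in CD45+ cells (adjusted p = 0.00462). In passage-8 cells the difference of -0.74 (adjusted p = 0.0552) did not pass.

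The 3 transcription factors each had a pattern of their own. Tfeb was at -0.51 and -0.35 in CD45+ cells, -0.29 and -0.61 in CD45- cells, -0.35 in both passage-8 samples, and 0.38 and 0.46 in the ventricle. The 6 cell arrays overlapped and all lay below the ventricle. No comparison passed for Tfeb: against the ventricle its differences were -0.87 in CD45- cells, -0.85 in CD45+ cells and -0.77 in passage-8 cells (adjusted p from 0.0185 to 0.0288), short of the size threshold. Between CD45- and CD45+ cells the difference was -0.02, with a 95% interval of -0.54 to 0.50.

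Tfec, a family member with restricted expression that includes macrophages, was at -0.04 and -0.19 in CD45+ cells and -2.81 and -2.44 in CD45- cells. It was not well above background in passage-8 cells (-5.75 and -7.40) or in the ventricle (-6.21 and -7.02). Tfec was 5.70-fold lower in CD45- than in CD45+ cells (adjusted p = 0.0280), a call lost with array weights, and at least 43.4-fold lower in passage-8 cells (adjusted p = 0.00152). Compared with the ventricle it was at least 28.7-fold higher in CD45+ cells (adjusted p = 0.000611) and at least 5.04-fold higher in CD45- cells (adjusted p = 0.00295).

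Mitf, the factor of melanocytes, osteoclasts and mast cells that also has a heart isoform, was at 4.12 and 3.83 in the ventricle, 3.37 and 3.39 in CD45+ cells, 0.95 and 1.85 in CD45- cells, and -0.17 and 0.05 in passage-8 cells. The 4 groups did not overlap, and their order set the tissue first. Mitf fell 3.95-fold from CD45+ to CD45- cells (adjusted p = 0.0116) and 10.9-fold from CD45+ to passage-8 cells (adjusted p = 0.00191). Against the ventricle it was 5.95-fold lower in CD45- cells (adjusted p = 0.00206), and in passage-8 cells 16.4-fold lower (adjusted p = 0.000492), while CD45+ cells differed by -0.59 (adjusted p = 0.203).

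**Figure D3:**
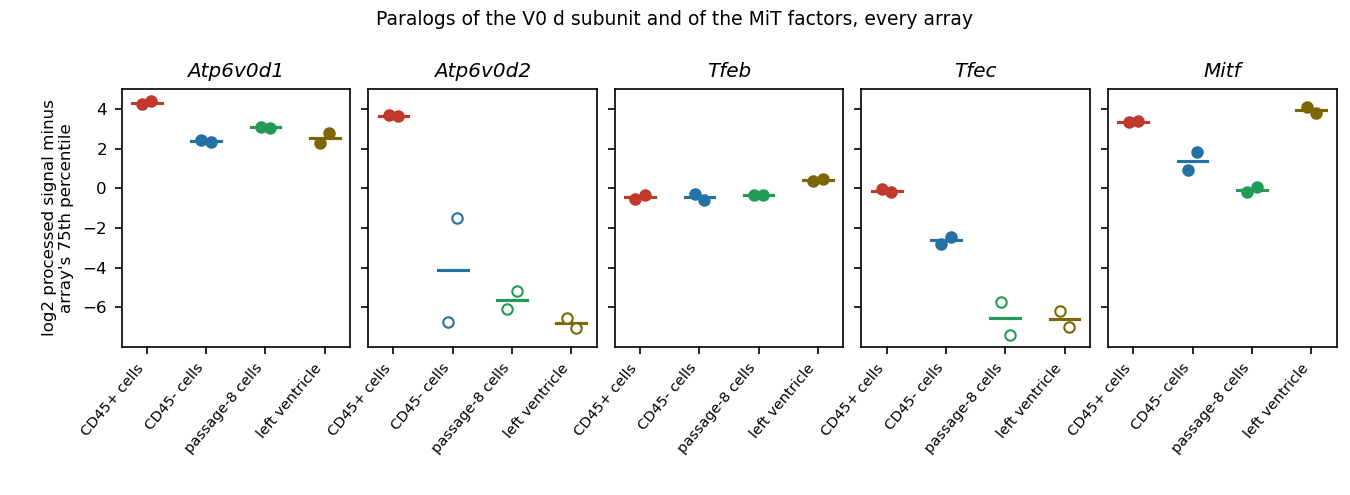
Log2 processed signal minus the array's 75th percentile for the paralogs Atp6v0d1 and Atp6v0d2 and for the MiT factors Tfeb, Tfec and Mitf. Points are single arrays, lines are group means, and open points mark groups not well above background on both arrays. Levels are to be compared within a panel, where Atp6v0d2 stands at 3.70 and 3.66 in CD45+ cells and below 0 on the other 6 arrays, while Tfeb stays between -0.61 and 0.46.

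Among the comparisons of cell groups, passage-8 against CD45- cells had the fewest of these genes pass. Of 31 genes tested, 2 were higher in passage-8 cells (Psap and Atp6v1h), 6.45% against 6.89% of the 22773 genes tested. Another 5 were lower (Lipa, Acp5, Tfec, Mitf and Lgmn), 16.1% against 6.92%. With array weights 1 gene was lower and 1 higher, where 1086 and 1005 of the 22773 genes were. A gene that did not pass is not thereby shown to be alike in both groups, since the CD45- arrays differed most between replicates. The median difference was 0.10, against -0.015 over all genes tested. Without replicate 1 of the CD45- arrays the median turned to -0.12 and more genes were lower, as over all genes tested. Fewer genes passed without either passage-8 array, and without either CD45+ array, which enters only through the pooled spread. That too held over all genes tested.

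The largest of these differences measured on both sides was that of Acp5, 16.4-fold lower in passage-8 cells (-4.04, SE 0.29, adjusted p = 0.00154). Tfec was at least 7.61-fold lower (adjusted p = 0.0113). Lipa was 2.95-fold lower (adjusted p = 0.0205), Mitf 2.75-fold (adjusted p = 0.0401) and Lgmn 2.47-fold (adjusted p = 0.0251). Psap was 2.46-fold higher (adjusted p = 0.0208) and Atp6v1h 2.14-fold higher (adjusted p = 0.0273). The calls for Acp5 and Tfec held with each of the 8 arrays left out in turn. Those for Lipa, Mitf, Lgmn, Psap and Atp6v1h were each lost without either passage-8 array. With array weights the calls for Tfec, Lipa, Mitf, Lgmn and Atp6v1h were lost. Psap and Mitf did not pass with only the 2 groups compared. Mitf did not pass under the replicate block or without the filter on dim probes either. Atp6v1b2, 0.99 higher (adjusted p = 0.0320), missed the size threshold. Laptm5 and Atp6v0d2 were not tested here, since neither group was well above background on both arrays.

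The CD45- arrays themselves differed in the genes with the largest declines. Replicate 2 exceeded replicate 1 by 5.28 for Atp6v0d2, 5.13 for Laptm5 and 3.83 for Cd68, where the median absolute difference over 21712 genes was 0.49. Over the 15 macrophage markers the median of replicate 2 minus replicate 1 was 3.07, over the 33 lysosomal genes 0.37 and over all genes -0.04. Acp5, Tfec and Psap differed by 0.65, 0.37 and 0.50. The part of the macrophage markers in these 3 genes was not tested.

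**Figure D4:**
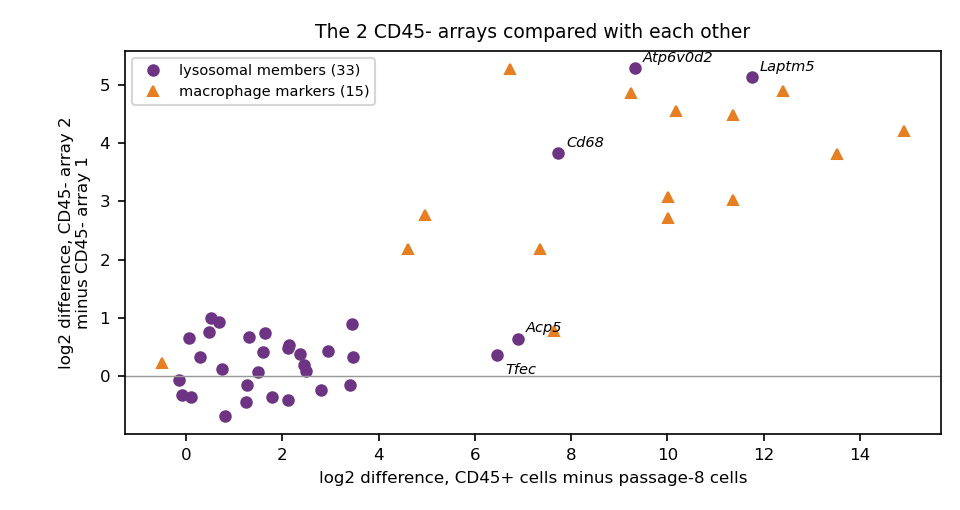
Difference between the 2 CD45- arrays (y axis, log2, replicate 2 minus replicate 1) against the difference between CD45+ and passage-8 means (x axis, log2) for the 33 lysosomal genes (circles) and 15 macrophage markers (triangles). Atp6v0d2, Laptm5 and Cd68 lie at 5.28, 5.13 and 3.83 on the y axis, among the triangles, and the other 30 genes lie at or below 1.01.

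Against ventricular tissue most of the genes were higher in CD45+ cells. Here 28 of 33 genes were higher and 1 (Smpd1) was lower, where 18.3% of the 23097 genes tested were higher and 19.8% were lower. Among the 31 genes well above background on all arrays of both groups, 26 were higher and 1 lower. Of all 19711 such genes 3384 were higher and 3256 lower. Over the 33 genes the median difference was 2.62, against -0.02 over all genes tested. The largest measured on both sides were those of Cd68 (95.2-fold), Laptm5 (63.3-fold), Acp5 (29.7-fold), Lipa (22.4-fold) and Gusb (19.7-fold), with adjusted p from 0.000171 to 0.0244. The genes that did not pass were Lamp2, Gla, Tfeb and Mitf.

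In CD45- cells 12 of 32 genes were higher than in the ventricle and 1 (Mitf) was lower, where 20.3% and 19.2% of 22284 genes were, and the median was 0.62 against 0.06 over all genes tested. With quantile normalization, normexp correction or the authors' deposited values 3 were lower, by the addition of Psap and Smpd1. In passage-8 cells 10 of 31 genes were higher and 4 (Smpd1, Acp5, Laptm5 and Mitf) were lower, where 20.3% and 18.8% of 23986 genes were, with a median of 0.54 against 0.05. Cd63, Hexa, Glb1, Gusb, Npc2, Lipa, Asah1 and Atp6v1a were higher than the tissue in all 3 comparisons, which share the ventricle arrays. With each of the 8 arrays left out in turn, 24 of the 29 calls in CD45+ cells against the ventricle held (not those of Npc1, Scarb2, Smpd1, Mcoln1 and Laptm5), 10 of 13 in CD45- cells (not Hexa, Acp2 and Lgmn) and 10 of 14 in passage-8 cells (not Lipa, Smpd1, Neu1 and Laptm5). On the arrays, 14 genes had all 6 cell samples above both ventricle samples and 3 had all below, against 23.1% and 21.8% of all genes. Beside these values, the summed signal of 9 cardiomyocyte markers was 4400 to 5283 in the ventricle and at most 6.13 on the cell arrays, and the part of the tissue's other cell types was not tested.

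**Figure D5:**
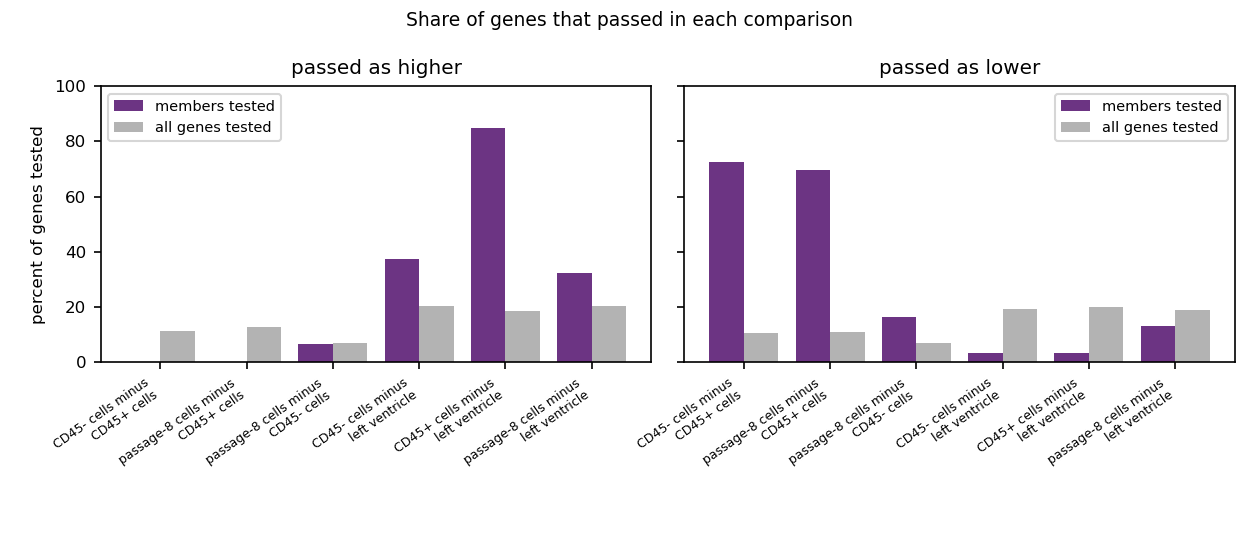
Percent of the lysosomal genes tested (dark bars) and of all genes tested (grey bars) that passed as higher (left panel) or lower (right panel) in each of the 6 comparisons. The dark bars reach 72.7% and 69.7% for lower in CD45- and passage-8 cells against CD45+ cells and 84.8% for higher in CD45+ cells against the ventricle, and between passage-8 and CD45- cells the higher bars are 6.45% and 6.89% and the lower bars 16.1% and 6.92%.

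A further 73 lysosome genes outside the set, covering other hydrolases, membrane proteins, V-ATPase subunits and the enzyme sorting machinery, were tested in the same fit. In CD45- against CD45+ cells 35 of 69 tested were lower and 2 higher (10.5% and 11.2% of all genes), with a median of -1.14 against 0.17 over all genes tested. In passage-8 cells 30 of 71 were lower and 7 higher (10.9% and 12.5% of all genes), with a median of -0.74 against 0.16. In CD45+ cells against the ventricle 43 of 70 were higher and 5 lower (18.3% and 19.8% of all genes), with a median of 1.5 against -0.02. Between passage-8 and CD45- cells 10 of 71 were higher and 4 lower (6.89% and 6.92% of all genes), with a median of 0.07 against -0.015.

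By role, 13 of 22 hydrolases, 7 of 20 membrane proteins, 11 of 15 V-ATPase subunits and 4 of 11 sorting genes were lower in CD45- than in CD45+ cells. The largest declines were those of Slc11a1 (151-fold, adjusted p = 0.00918), a metal transporter of macrophage phagosomes, Gpnmb (134-fold, adjusted p = 0.0373), a glycoprotein of macrophages and osteoclasts, and Hyal1 (16.9-fold, adjusted p = 0.00212), a hyaluronidase. The CD45- arrays differed for Slc11a1 (-4.21 and -0.44, SE of the difference 1.13) and Gpnmb (-1.48 and 4.20, SE 1.81) and less for Hyal1 (-2.01 and -2.49, SE 0.23). Against the CD45+ mean, CD45- replicates 1 and 2 lay at -9.12 and -5.35 for Slc11a1 and at -9.90 and -4.22 for Gpnmb. Slc17a5, the sialic acid exporter, was 5.03-fold higher (adjusted p = 0.00280) and Idua, alpha-iduronidase, was 4.56-fold higher (adjusted p = 0.00320). In passage-8 cells Slc11a1 was at least 1420-fold lower (adjusted p = 0.00180), while Atp6v0e2, a small V-ATPase subunit, was 4.33-fold higher (adjusted p = 0.0132).

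Against CD45- cells the largest increases in passage-8 cells within this list were those of Atp6v0e2 (29.6-fold, adjusted p = 0.00205) and Sort1, the sorting receptor sortilin (14.1-fold, adjusted p = 0.00628), whose CD45- arrays read -2.91 and -1.49. Both genes were also the lowest of the list in CD45- cells against the ventricle, by 13.0-fold and 15.1-fold (adjusted p = 0.00102 and 0.00133). Tfe3, the remaining MiT factor tested, was higher than the ventricle in all 3 cell groups, 4.12-fold in CD45- cells (adjusted p = 0.000797), 4.28-fold in CD45+ cells (adjusted p = 0.000770) and 3.02-fold in passage-8 cells (adjusted p = 0.00185). Its differences from CD45+ cells were -0.06 in CD45- cells and -0.50 in passage-8 cells, neither of which passed. The promoter windows of this list held CACGTG in 17 of 66 (25.8%), TCACGTGA in 9 (13.6%) and the full CLEAR palindrome in 2, those of Cln3 and Igf2r.

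Of the 12 genes with 2 probes, 8 gave the same sign on both in all 6 comparisons. Cd68 was lower on both probes in CD45- and passage-8 cells than in CD45+ cells, but for passage-8 minus CD45- cells the brighter probe gave -1.02 and the other 1.45. Atp6v0d2 and Tfeb also changed sign in some comparisons, with the further probe of Tfeb well above background on 1 of 8 arrays. For Acp5 and Mitf the 2 probes differed by at most 0.18 and 0.58 in any of the 6 comparisons. The largest gap was 3.21 for Cd68, 1.9 for Tfeb, 1.58 for Lamp2 and 1.45 for Mcoln1. It was 1.39 for Atp6v0d2, 1.29 for Gusb and 1.14 for Laptm5. For CD45- minus CD45+ cells the further probe of Gusb gave -1.46, against -2.75 on the brighter probe.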

How the data were processed

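Total RNA of 8 samples was labelled with Cy3 from 200 ng and hybridised to 1-colour Agilent mouse arrays that share 1 slide, per the labels' protocols and the file headers. The deposited scanner files hold a processed intensity for each spot; the submitters' processing notes name Agilent Feature Extraction 10.7. The authors' deposited value table holds log2 values with array medians of 6.09, and no source used here names the tool that made it.

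From each array 3671 control spots were left out. Repeated spots were averaged without the 167 to 248 outlier spots. A probe whose spots on an array were all outliers kept their values. The log2 intensity of the 55681 probes was taken minus the array's 75th percentile, which was computed over all non-control spots. A share of signal is thus compared, not an amount per cell. Accessions of 27235 probes matched RefSeq genes, and the brightest probe stood for a gene. Coordinates of probes are those of the files in mm9.

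The fit used limma 3.58.1 (lmFit, eBayes, R 4.3.3) on all 8 arrays, with 1 mean per group. It had 4 residual and 5.857 total degrees of freedom, since eBayes draws each gene's spread towards a value taken over all genes. Every SE rests on this pooled and moderated spread. Tests are two-sided. No permutation test is given, since 2 arrays against 2 are too few. On simulated data for CD45- against CD45+ cells (21525 genes) the fit recovered 64 of 100 changes of 2 log2 units and 94 of 100 of 4, and called 2 unchanged genes. The simulated arrays of a gene had the same spread in all groups, and few genes changed. In the data the CD45- arrays spread more than the others and many more genes passed, so these figures need not hold there. Same-numbered arrays did not deviate together (correlations from -0.169 to 0.165), so replicate numbers were not used as pairs.

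The members and gene lists were chosen with earlier results of these data known. All 33 members may be named, and of the 73 further lysosome genes the 3 highest and 3 lowest that passed in a comparison. Tfe3 is also named where it did not pass, chosen after its values were seen. Alternatives were quantile normalization, normexp background correction, the authors' deposited table, other filters and probe rules, array weights, the 2 groups alone, the replicate block and each array left out. Moderation over detected genes was chosen after seeing the data.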

Additional observations from a re-analysis of the deposited data

How the results depend on the processing

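Over 15 or more settings per comparison the counts of lower genes in CD45- and passage-8 cells against CD45+ cells and of higher genes in CD45+ cells against the ventricle stayed within 1.5 times the values given, except where an array was left out. With each array left out in turn, CD45- minus CD45+ cells gave 0 higher and 8 to 25 lower genes, passage-8 minus CD45+ cells 0 higher and 16 to 23 lower, and passage-8 minus CD45- cells 0 to 3 higher and 2 to 9 lower. Against the ventricle the ranges were 11 to 15 higher and 1 to 4 lower in CD45- cells, 24 to 28 and 0 to 1 in CD45+ cells, and 8 to 10 and 2 to 5 in passage-8 cells. Each of these fits leaves 1 array in a group and fewer degrees of freedom. For CD45- minus CD45+ cells the count of lower genes fell far only without a CD45+ array, as it did over all genes tested. The cause of these ranges was not tested.

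Between passage-8 and CD45- cells 1 gene was higher with only the 2 groups compared and 1 with array weights, which also left 1 lower gene. For CD45- cells against the ventricle 3 genes were lower with quantile normalization, 3 with normexp correction, 3 in the authors' deposited table and 4 with no minimum difference, which also gave 2 lower genes in CD45+ cells against the ventricle. Without CD45- replicate 1 the median for passage-8 minus CD45- cells turned to -0.12 and Cd68 in CD45- cells minus ventricle to 1.78, against 0.24 and -2.05 without CD45- replicate 2. The cause was not tested. Among single genes and settings, 3464 calls were the same, 137 lost their call, 54 gained one and 1 reversed.

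With the replicate block the counts were 23 lower genes in CD45- cells and 23 in passage-8 cells against CD45+ cells, 2 higher and 4 lower between passage-8 and CD45- cells, and 12, 28 and 10 higher genes against the ventricle in CD45-, CD45+ and passage-8 cells. The calls for Asah1 (CD45- minus CD45+ cells) and Mitf (passage-8 minus CD45- cells) were lost under the block.

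Normexp correction moved the median of all genes for CD45- minus CD45+ cells from 0.174 to 0.326. For passage-8 minus CD45- cells it gave 1060 higher and 2313 lower genes of all, against 1569 and 1577. Comparison of proteins between paralogs was not run. Signals near background limit Laptm5, Tfec and Atp6v0d2 to bounds in some groups.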
